A study of Mus musculus with 6 samples.

Results

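The Notch pathway genes described here are 10 genes: the receptors *Notch1*, *Notch2* and *Notch3*, the ligands *Jag1*, *Jag2* and *Dll1*, the nuclear proteins *Rbpj* and *Maml1* and the target genes *Hes1* and *Hey1*. They were chosen by name as core genes of the pathway, and matched through their transcript accessions to 13 of the 55681 non-control probes of the array, which name 21368 genes in all. *Notch1*, *Notch2* and *Rbpj* have 2 probes each and the other members 1. The brightest probe of a gene over all arrays is given unless stated.

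Notch signalling passes between touching cells. A ligand of the Jagged or Delta-like family on one cell binds a Notch receptor on its neighbour, the receptor is cut inside the membrane by gamma-secretase, and the freed intracellular domain enters the nucleus, where it joins the DNA-binding protein RBPJ and a Mastermind-like coactivator to switch on repressors of the Hes and Hey families. In the epidermis the pathway is known for promoting the step from proliferating basal cells to differentiating spinous cells.

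Keratinocytes, which make up most of the epidermis, were taken from newborn pups into primary culture, and cells lacking the transcription factors *Sox4*, *Sox11* or both were compared with wild-type control cells. The groups were Sox4 cKO (conditional knockout), Sox11 cKO and Sox4/11 dcKO (double conditional knockout), with 2 biological replicates each. Every array carried knockout RNA in one channel and wild-type RNA in the other, with the dyes Cy3 and Cy5 swapped between the replicates, which gave 6 arrays and 12 channels. The strain of every sample, wild type included, is given as 129SvEx:C57BL/6. According to the study's methods the knockouts were made from floxed alleles (Sox4 fl/fl, Sox11 fl/fl) with Krt14-Cre, a driver active in basal keratinocytes that came from an FVB/N line, and the floxed parents also carried Sox12 -/-. Whether the cultured cells were Sox12 -/- is not given in the sources used here, nor is the Cre status of the wild-type cells. All cells had been grown on J2 fibroblast feeders and then passaged without them, so these are cultured cells away from the layered epidermis. It is not stated if separate wild-type cultures supplied the different arrays, so p-values measure only the spread between these arrays.

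The targeted genes were low in the knockout channel on every array where the labels name them. *Sox4* had log2 ratios of knockout over wild type of -2.49 and -2.54 in Sox4 cKO and -2.23 and -2.81 in dcKO, and *Sox11* of -3.31 and -2.65 in Sox11 cKO and -3.07 and -3.79 in dcKO. Markers of basal keratinocytes were well above background in all 12 channels for 8 of 8 genes. Markers of feeder fibroblasts were so for 0 of 8, and 5 of them (*Col1a1*, *Col3a1*, *Pdgfrb*, *Lum* and *Thy1*) were well above background in no channel. Markers of endothelium were so in all 12 channels for 2 of 5 genes, of immune cells for 2 of 6 and of melanocytes for 1 of 6. Between 35.1% and 45.0% of the probes were well above background in a channel. Here "well above background" is the scanner software's own mark, levels are log2 normalised intensity, which can be compared between channels for 1 gene and not between genes, and a log2 ratio of 1 is a doubling.

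None of the 10 members passed the test in any genotype. Probes were called at a Benjamini-Hochberg adjusted p below 0.05 in the limma model, taken over all probes, with an absolute log2 fold change above 1.5. By this rule 0 of 10 members were called for Sox4 cKO, where 0.14% of all probes were called, 0 of 10 in Sox11 cKO (0.0862% of all probes) and 0 of 10 in dcKO (0.756%). Without the limit on fold change the count of members stayed 0 in each genotype, against 0.176%, 0.124% and 2.06% of all probes. With shares this small in the background, a count of 0 of 10 is close to what the background gives. At an unadjusted p below 0.05, which 7.4%, 6.85% and 13.0% of all probes had, 0, 2 and 1 members passed for Sox4 cKO, Sox11 cKO and dcKO. Many of these probes were not above background. Of the 12010 named genes above background in 6 or more channels, 1911, 1906 and 3823 had such a p, in the same order. That set holds 9 of the 10 members and is the closer comparison. The smallest adjusted p of a member by limma was 0.693 in Sox4 cKO (*Dll1*), 0.528 in Sox11 cKO (*Notch3*) and 0.258 in dcKO (*Rbpj*).

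The sizes of the measured differences were close to those of other genes. Over the 9 members well above background, the median absolute log2 fold change was 0.25 in Sox4 cKO, 0.16 in Sox11 cKO and 0.27 in dcKO, and over the 12010 named genes above background in 6 or more channels it was 0.19, 0.18 and 0.27. The signed medians of the 9 members were -0.15, 0.15 and -0.27, against 0.01, -0.00 and -0.05 for those genes. The tests are limited by the 2 arrays of each genotype: the 95% intervals of the members' log2 fold changes were between 0.70 and 1.22 wide in total.

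**Figure D1:**
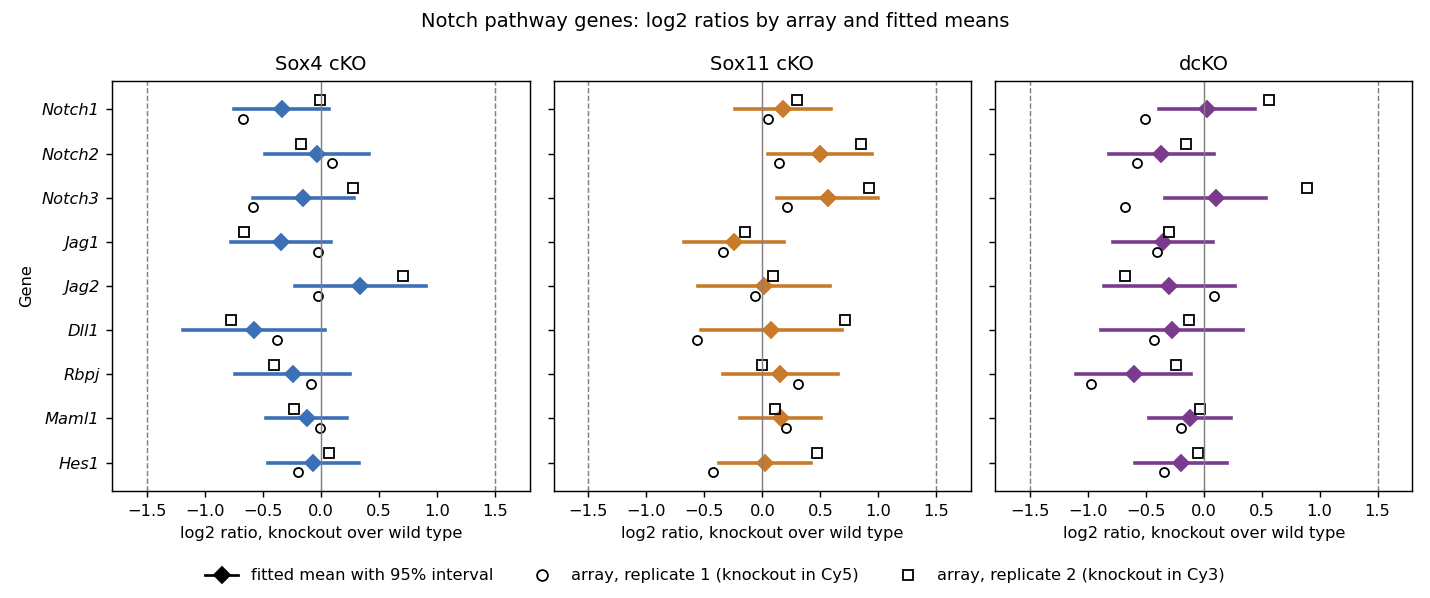
Log2 ratio of knockout over wild type (x axis) of the 9 Notch pathway genes well above background (y axis), in 1 panel per genotype. Open circles and squares are the arrays of replicate 1 and replicate 2, diamonds are the fitted means with their 95% limma intervals, and dashed lines mark the log2 fold change limit of 1.5. No member came near that limit, and the interval excluded 0 for Notch2 and Notch3 in Sox11 cKO and for Rbpj in dcKO, none of which passed the adjusted test.

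All 3 receptors had their highest fitted fold change in Sox11 cKO by their brightest probes, at 0.56 for *Notch3*, 0.50 for *Notch2* and 0.17 for *Notch1*. The second probe of *Notch1* was highest in dcKO instead. *Notch3*, a receptor known from the suprabasal layers of the epidermis, had log2 ratios of 0.21 and 0.92 on the arrays of Sox11 cKO, -0.58 and 0.28 in Sox4 cKO and -0.68 and 0.89 in dcKO. Only in Sox11 cKO were both arrays above 0, and in all 3 genotypes the array with the knockout in Cy3 gave the higher ratio. The model assigned this to a dye effect of -0.52 for Cy5 over Cy3 on the log2 scale.

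The fold change of *Notch3* in Sox11 cKO was 0.56 ± 0.50 (SD of the ratios as measured, n = 2; 95% interval 0.13 to 1.00; limma adjusted p = 0.528). It was -0.15 ± 0.61 in Sox4 cKO and 0.10 ± 1.11 in dcKO. With the dye effect taken out of each ratio the SDs were 0.24 in Sox11 cKO, 0.13 in Sox4 cKO and 0.37 in dcKO. Without 1 of its arrays the value in Sox11 cKO was 0.31 or 0.82. The change in Sox11 cKO was larger in size than that of 89.2% of the 12010 named genes above background, and the adjusted test did not separate it from the spread between arrays. Between the single knockouts, Sox4 cKO minus Sox11 cKO was -0.72 (interval -1.33 to -0.10, adjusted p = 0.717).

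*Notch2*, also expressed in keratinocytes, was highest in Sox11 cKO as well, with dcKO the lowest, where for *Notch3* the lowest was Sox4 cKO. Its log2 ratios were 0.14 and 0.85 in Sox11 cKO, 0.10 and -0.17 in Sox4 cKO and -0.58 and -0.15 in dcKO. Both arrays of Sox11 cKO lay above both of dcKO, and the adjusted test did not separate these genotypes (limma adjusted p = 0.289). With 2 arrays against 2 this order is no result by itself, and how many other genes had it was not counted. The fold changes were 0.50 ± 0.50 in Sox11 cKO (interval 0.05 to 0.95, adjusted p = 0.660), -0.04 ± 0.19 in Sox4 cKO and -0.36 ± 0.30 in dcKO (SD, n = 2). The second probe of *Notch2*, well above background in 11 channels, gave 0.21 in Sox11 cKO, -0.43 in Sox4 cKO and 0.04 in dcKO, so the probes differ in which knockout was lower. Without 1 Sox11 cKO array the value of the brightest probe there was 0.18 or 0.81.

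*Notch1*, the receptor most studied in epidermal differentiation, had log2 ratios of -0.67 and -0.01 in Sox4 cKO, 0.05 and 0.30 in Sox11 cKO and -0.50 and 0.57 in dcKO. Here too the array with the knockout in Cy3 was the higher of each pair, with a fitted dye effect of -0.33. The fold changes were -0.34 ± 0.47, 0.17 ± 0.18 and 0.03 ± 0.76 (SD, n = 2), and the limma interval in dcKO ran from -0.38 to 0.45. The second probe of *Notch1* was well above background in 7 channels and gave -0.21, 0.22 and 0.45. Its dcKO value had an unadjusted p of 0.0216 and an adjusted p of 0.250 in the limma model.

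The levels behind these ratios varied from array to array in the wild-type channels too. Over the 6 wild-type channels *Notch3* ran from 7.61 to 8.97 (median 7.83), *Notch2* from 9.34 to 10.08 (median 9.72) and *Notch1* from 6.11 to 7.33 (median 6.47) in log2 intensity. These ranges are between arrays. Each fold change sets knockout against wild type on the same array, so the ranges are not its error.

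**Figure D2:**
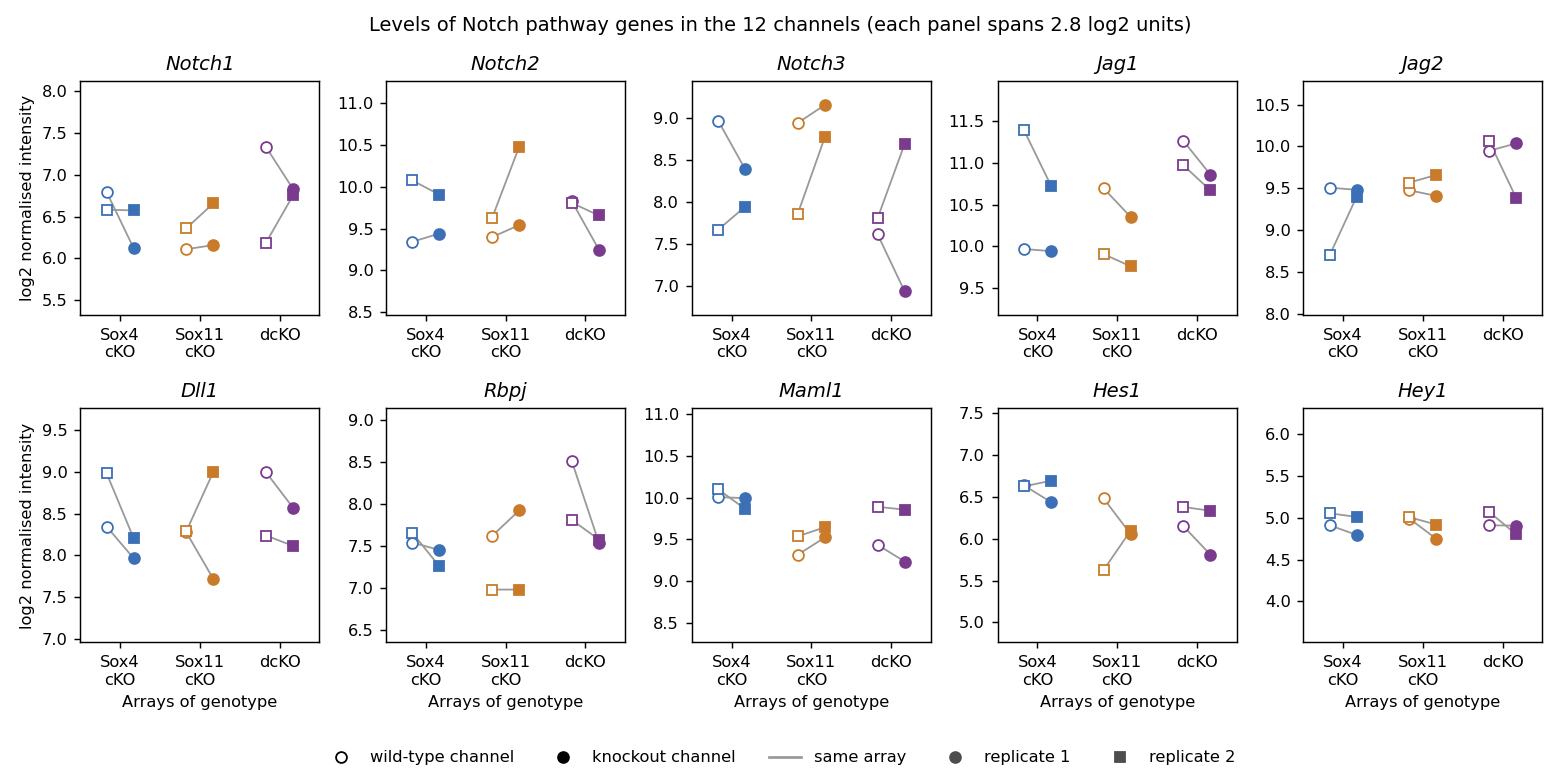
Log2 normalised intensity (y axis) of each Notch pathway gene in the 12 channels, with the 3 genotypes along the x axis. Open symbols are wild-type channels and filled symbols knockout channels, circles are replicate 1 and squares replicate 2, and grey lines join the channels of the same array. Jag1 is lower in the knockout channel on all 6 arrays, though it passed the test in no genotype and other genes with this were not counted. The Hey1 channels, between 4.75 and 5.07, were not well above background on any array.

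Among the ligands, *Jag1* was the one with ratios below 0 on all 6 arrays. How many other genes had this was not counted, and without Sox4 cKO replicate 2 the fitted value in Sox4 cKO turned to 0.05. *Jag1*, a ligand known from the suprabasal layers, had log2 ratios of -0.03 and -0.67 in Sox4 cKO, -0.34 and -0.15 in Sox11 cKO and -0.40 and -0.30 in dcKO. The fold changes were -0.35 ± 0.45, -0.24 ± 0.14 and -0.35 ± 0.07 (SD, n = 2), with limma intervals that all included 0 and adjusted p of 0.755, 0.929 and 0.521. With the dye effect taken out, the SDs were 0.37, 0.22 and 0.15. In the wild-type channels *Jag1* ran from 9.91 to 11.39, a range between arrays and not the error of the ratios.

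*Dll1*, the Delta-like ligand linked to the stem cell compartment of the epidermis, had the largest fold change of a member in Sox4 cKO. Its log2 ratios were -0.38 and -0.78 in Sox4 cKO, -0.56 and 0.71 in Sox11 cKO and -0.42 and -0.12 in dcKO. Both arrays of Sox4 cKO and of dcKO lay below 0, and those of Sox11 cKO on opposite sides. The fold change in Sox4 cKO was -0.58 ± 0.28 (SD, n = 2; limma interval -1.19 to 0.03, adjusted p = 0.693), larger in size than that of 91.3% of the named genes above background. It rests on replicate 2: without that array it was 0.014, and without replicate 1 it was -1.17. In Sox11 cKO it was 0.08 ± 0.90 and in dcKO -0.27 ± 0.21.

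*Jag2*, a ligand of basal keratinocytes, moved in different directions on different arrays. Its log2 ratios were -0.03 and 0.70 in Sox4 cKO, -0.07 and 0.09 in Sox11 cKO and 0.09 and -0.68 in dcKO. The fold changes were 0.34 ± 0.52, 0.01 ± 0.11 and -0.30 ± 0.54 (SD, n = 2), each smaller than its SD.

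Promoter sequence was looked up for the members because *Sox4* and *Sox11* are DNA-binding factors, with no measurement of binding in these data. RefSeq promoter windows of 300 bases (GRCm38.p6) were found for 8 of the 10 members, with 10 windows in all. *Hes1* and *Hey1* were not among them. The SOX core letters ACAAAG, searched on both strands, were in 1 of these 10 windows and in 18.7% of the 32851 windows of all genes, and the RBPJ letters GTGGGAA were in 0 of 10 and in 6.38%. The match lay in a window of *Dll1*, with the letters starting 121 bases before the gene's start. The stretch is printed 5′ to 3′ on the minus strand at chr17:15377024-15377077, with the match in capitals, as the place where the letters occur among the members.
Dll1: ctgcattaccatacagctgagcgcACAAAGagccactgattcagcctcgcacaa

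Of the nuclear proteins, *Rbpj* had the largest fitted difference of a member in dcKO over both arrays. *Rbpj*, the DNA-binding partner of all Notch receptors, had log2 ratios of -0.98 and -0.24 in dcKO, -0.09 and -0.40 in Sox4 cKO and 0.31 and -0.00 in Sox11 cKO. Both arrays of dcKO lay below both of Sox11 cKO, and the adjusted test did not separate these genotypes (limma adjusted p = 0.432). With 2 arrays against 2 this order is no result by itself, and its share among other genes was not counted. The arrays of Sox4 cKO and dcKO overlapped. The fold change in dcKO was -0.61 ± 0.52 (SD, n = 2; interval -1.10 to -0.11; limma adjusted p = 0.258). It rests on replicate 1: without that array it was -0.08, where *Jag2* at -0.90 was the largest, and without replicate 2 it was -1.13.

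*Rbpj* was at -0.25 ± 0.22 with *Sox4* lost alone and at 0.15 ± 0.22 with *Sox11* lost alone. Its second probe, well above background in 11 channels, gave -0.33 in dcKO (interval -0.67 to 0.01), 0.02 in Sox4 cKO and -0.09 in Sox11 cKO. Both probes thus had their lowest value in dcKO, and they had opposite signs in the single knockouts. In the wild-type channels the brightest probe ran from 6.98 to 8.51, and the highest of these, 8.51, was on the dcKO array that gave the ratio of -0.98.

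*Maml1*, a coactivator that binds the RBPJ and Notch complex, had the narrowest intervals of the members. Its log2 ratios were -0.01 and -0.24 in Sox4 cKO, 0.21 and 0.11 in Sox11 cKO and -0.20 and -0.03 in dcKO. The fold changes were -0.12 ± 0.16, 0.16 ± 0.07 and -0.12 ± 0.12 (SD, n = 2). The limma intervals ran from -0.48 to 0.23, from -0.19 to 0.51 and from -0.47 to 0.24, so a change of *Maml1* larger than 0.51 in either direction lay outside them in each genotype.

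The target genes give the readout nearest to pathway output, as far as transcripts can. *Hes1*, a repressor that keeps cells from differentiating in many tissues, had log2 ratios of -0.20 and 0.07 in Sox4 cKO, -0.43 and 0.47 in Sox11 cKO and -0.34 and -0.05 in dcKO. It was well above background in 11 channels and missed that mark in the knockout channel of dcKO replicate 1. The fold changes were -0.07 ± 0.19, 0.02 ± 0.64 and -0.19 ± 0.21 (SD, n = 2), and the limma intervals lay between -0.59 and 0.42 in all 3 genotypes. *Hey1*, a related repressor, was well above background in 0 of 12 channels, so no fold change is given.

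Between genotypes, 0 of 10 members were called in any comparison. Of all probes, 0.562% were called when dcKO was set against Sox4 cKO, 0.449% when it was set against Sox11 cKO, and 0.0108% between the single knockouts. For the departure of dcKO from the sum of the single knockouts the share was 0.329%. The largest difference of a member was that of *Notch2* for dcKO minus Sox11 cKO, -0.86 ± 0.27 (SE of the limma model, adjusted p = 0.289). *Rbpj* gave -0.76 in the same comparison (interval -1.46 to -0.06, adjusted p = 0.432). *Notch2* in dcKO also lay below the sum of its single knockout values, with a departure of -0.83 (interval -1.61 to -0.05, adjusted p = 0.429). The second probes did not bear these sizes out: for *Notch2* the second probe gave -0.17 for dcKO against Sox11 cKO and a departure of 0.26, in the opposite direction, and for *Rbpj* it gave -0.24. With the mean of a gene's probes, the values of *Notch2* were -0.52 and -0.28. These comparisons share the arrays of dcKO and of Sox11 cKO and are not independent of each other.

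The wider pathway was followed in 58 genes with a probe, grouped as other receptors and ligands (6 genes), processing and glycosylation (13), trafficking and turnover (15), nuclear cofactors (15) and other targets (9). In Sox4 cKO and Sox11 cKO 0 of 58 passed an adjusted p below 0.05, where 0.375% and 0.35% of the 12010 named genes above background did. With shares this small, a count of 0 is close to the background. In dcKO 3 of 58 fell (5.17%) and 0 rose, where 6.08% of the 12010 named genes above background passed at any fold change, and 0 of 58 passed the limit on fold change. The sets differ in filter: 51 of the 58 genes were above background in 6 or more channels, as all of the 12010 were. The median log2 fold change of the 58 genes was -0.05 in Sox4 cKO, -0.03 in Sox11 cKO and -0.05 in dcKO, the last equal to that of the named genes above background.

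The genes that fell in dcKO were *Epn2*, *Ccnd1* and *Dtx4*. *Epn2*, an endocytic adaptor of the epsin family that acts in ligand uptake, had log2 ratios of -1.15 and -1.24 in dcKO and between -0.14 and 0.30 on the 4 other arrays. Its fold change in dcKO was -1.20 ± 0.07 (SD, n = 2; limma adjusted p = 0.0150). With the dye effect taken out, that SD was 0.15. *Dtx4*, an E3 ubiquitin ligase of the Deltex family, had -1.23 and -0.73 in dcKO and between -0.28 and 0.35 on the other arrays, with a fold change of -0.98 ± 0.35 (limma adjusted p = 0.0489). For both genes the dcKO arrays lay below all others, and how many other genes did so was not counted. With a background offset of 50 in place of 16, the adjusted p of *Epn2*, *Dtx4* and *Ccnd1* in dcKO was 0.0531, 0.103 and 0.0726 by limma, so none of these falls passed at that setting.

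*Ccnd1*, the G1 cyclin D1 and a target of several pathways besides Notch, had log2 ratios of -1.24 and -1.28 in dcKO, 0.29 and 1.12 in Sox4 cKO and -0.29 and 0.06 in Sox11 cKO. It fell by 1.26 ± 0.03 in dcKO (SD, n = 2; limma adjusted p = 0.0191). With the dye effect taken out, that SD was 0.29. The difference of dcKO minus Sox4 cKO was -1.97 (interval -2.56 to -1.37, adjusted p = 0.0270), so the genotypes differed in *Ccnd1* by this test, though not with an offset of 50 (adjusted p = 0.104). The single loss of *Sox4* gave 0.71 ± 0.58, which did not pass (adjusted p = 0.393).

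**Figure D3:**
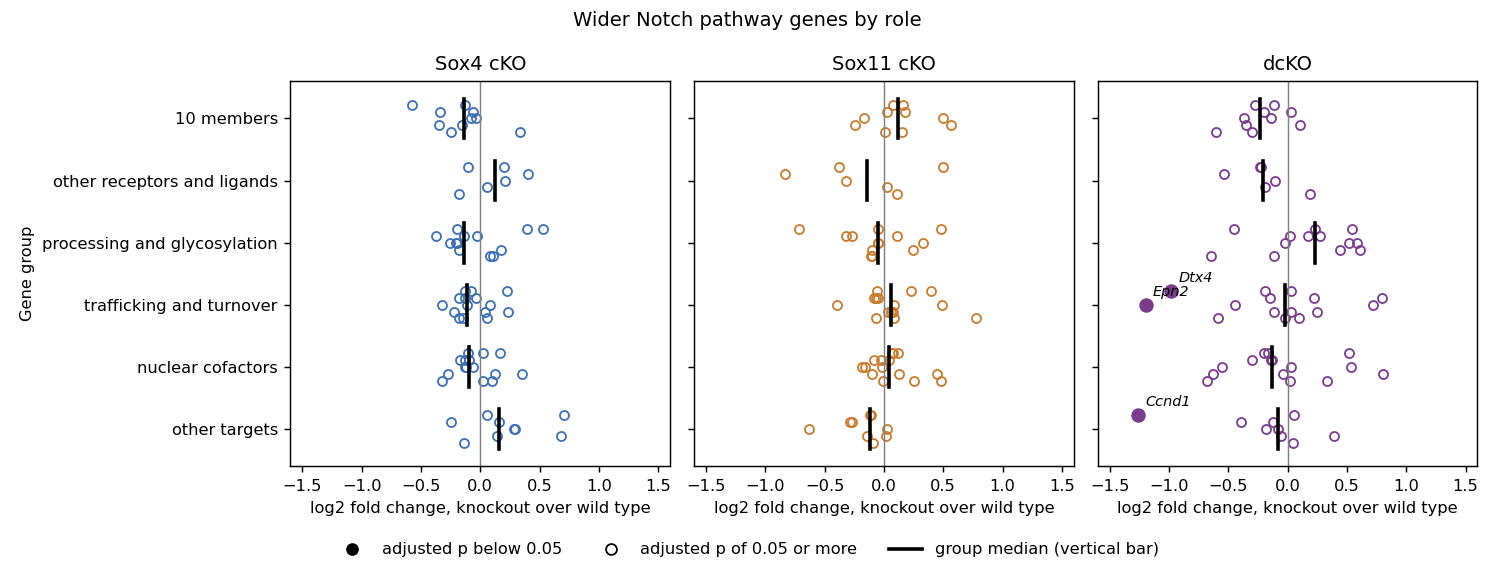
Log2 fold change over wild type (x axis) of the 10 members and of 58 wider Notch pathway genes grouped by role (y axis), in 1 panel per genotype. Each circle is a gene, filled where the limma adjusted p was below 0.05, and vertical bars are group medians. The filled circles are Epn2, Dtx4 and Ccnd1 in dcKO, all left of 0.

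Other wider genes had sizeable values that did not pass the test. In dcKO these were *Kat2b*, a histone acetyltransferase, at 0.81 ± 0.23 (limma adjusted p = 0.0511), *Mib2*, a ligand ubiquitin ligase, at 0.80 ± 0.16 (0.160), and *Dtx2* at 0.72 ± 0.08 (0.0872). In Sox4 cKO, after *Ccnd1*, they were *Nrarp*, a target that dampens the pathway, at 0.68 ± 0.87 and *Psen2*, a gamma-secretase subunit, at 0.53 ± 0.10. In Sox11 cKO they were *Dlk2* at -0.83 ± 0.77, *Dtx3l* at 0.77 ± 0.39 and *Lfng*, a glycosyltransferase that modifies the receptors, at -0.71 ± 0.0015 (SD, n = 2 in each). These SDs are of 2 ratios before the dye effect was taken out, so the small SD of *Lfng* is not its precision. The smallest limma adjusted p of a processing and glycosylation gene in Sox11 cKO was 0.193. *Dtx3l* differed between genotypes, with dcKO minus Sox11 cKO at -1.36 (interval -1.83 to -0.89, limma adjusted p = 0.0460), which did not hold with an offset of 50 (0.123) or without the dye term (0.259).

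Of 12 spinous and granular differentiation genes with a probe, 0 passed the adjusted test in any genotype. Of the 12010 named genes above background, 0.375% passed it in Sox4 cKO, 0.35% in Sox11 cKO and 6.08% in dcKO. In dcKO the values of the 12 genes were mostly above 0, with a median log2 fold change of 0.21. With the dye effect taken out, 8 of 12 were higher on both arrays and 2 lower. Of the 12010 named genes above background, 3830 were higher and 4796 lower on both arrays. An unadjusted p below 0.05 in limma, in either direction, was found for 6 of 12. It was found for 3823 of those 12010 genes and 13.0% of all probes. Of the 12 genes, 9 were above background in 6 or more channels. With Sox4 lost alone the median was -0.21 and 7 of 12 were lower on both arrays, where 3933 of the 12010 genes were. With Sox11 lost alone it was -0.30 and 5 of 12 were, where 3674 of the 12010 genes were.

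In dcKO the largest values among those well above background in both knockout channels were *Sbsn* at 1.27 ± 0.64, *Casp14*, a caspase of the cornified layer, at 1.26 ± 0.93 and *Cdsn*, which encodes corneodesmosin, at 1.07 ± 0.86 (SD, n = 2), named after their values were seen. *Ivl*, which encodes the envelope protein involucrin, had -0.76 ± 0.04 in Sox4 cKO, -0.37 ± 1.12 in Sox11 cKO and 0.78 ± 1.29 in dcKO. With the dye effect taken out, its SDs were 0.83, 0.33 and 0.50, in the same order. *Lor*, which encodes loricrin, was the lowest of the list in dcKO at -1.25 ± 0.44, with -0.39 ± 0.85 and -0.29 ± 0.58 in the single knockouts, and had the list's smallest limma adjusted p there, 0.122. *Krt10*, a keratin of spinous cells, had -0.21 ± 0.17, -0.30 ± 0.61 and 0.21 ± 0.43, and *Krt1* was well above background in 1 or fewer channels of each kind and genotype.

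Of 8 basal keratinocyte markers, 1 passed in a comparison with wild type. Of the 12010 named genes above background, 0.375% passed in Sox4 cKO, 0.35% in Sox11 cKO and 6.08% in dcKO. *Krt15*, a keratin of basal cells, fell by 1.58 ± 0.08 in Sox4 cKO, where it was called (SD, n = 2; limma adjusted p = 0.0245), and rose by 0.85 ± 0.05 in dcKO (adjusted p = 0.0432). Its difference of dcKO minus Sox4 cKO was 2.43 (limma adjusted p = 0.00917). The values of *Krt15* were not followed under the alternative settings, so how far they hold is not known. With an offset of 50, 3 of all probes were called in Sox4 cKO, where 78 were called in the main run. For dcKO minus Sox4 cKO that offset left 0 of all probes called, so the difference of *Krt15* was not called there. The basal keratins *Krt5* and *Krt14* lay between -0.25 and 0.39, and did not pass. The part of the state of differentiation in the values of the Notch pathway genes was not tested.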

How the data were processed

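RNA of cultured keratinocytes was measured on 6 Agilent arrays, grouped by the genotype in the sample titles. Per the file headers, the deposited scanner output gives a linear intensity per spot and channel from Agilent Feature Extraction 11.0.1.1, with the software's own log10 ratio of the processed channels beside it. A table of log2 ratios was deposited too. Per the study's methods it had been corrected for background, normalised by loess and cleared of a dye effect. Its direction was checked against the scanner values and was knockout over wild type on all arrays (correlations 0.890 to 0.952, column medians -0.01 to 0.00). The log10 ratios and that table served as alternatives.

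Median spot signals were corrected with normexp (offset 16) against median local background and loess normalised within each array in R 4.3.3 with limma 3.58.1. Control spots (3671 of 62976) and outlier spots were left out, and replicate spots were averaged per probe. Channel levels were further scaled between arrays by average intensity (Aquantile). A limma model over all arrays held 3 genotype effects, with the sign turned on swapped arrays, and a dye term. It left 2 residual degrees of freedom, to which the prior added 5.37. Intervals are 95% and come from this model, and each SD is over the 2 ratios of a genotype before the dye term is taken out, unless stated. Taking the dye term out made some SDs smaller and others larger. The number of arrays limits the precision. The script was tested on simulated data. Large changes were recovered, most changes of 1 log2 unit in the bright probes were missed where variances followed the model's prior, and false calls exceeded the nominal rate where variances did not follow it, so a count of 0 does not show that small changes were absent.

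The dye term equals a block on the replicate number, since the dyes followed that number in every genotype. Same-numbered arrays deviated together from their genotype means (correlations 0.316, 0.244 and 0.125 over probes). Slide and scan could not be tested as batches.

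Probes were named through RefSeq accessions (GRCm38.p6), which named 95.1% of 29786 probes with such an accession. The array was designed on another build, so no gene coordinates were taken from it. The members, the gene lists and the rules were chosen with earlier results of these data known. The text names all members, the wider pathway genes with an adjusted p below 0.05, the 3 largest others per genotype, and 6 differentiation genes. These 6 are *Krt5*, *Krt14*, *Krt1*, *Krt10*, *Ivl* and *Lor*. *Sbsn*, *Casp14*, *Cdsn* and *Krt15* are outside this rule and were named from their values.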

Additional observations from a re-analysis of the deposited data

How the results depend on the processing

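The count of members called stayed at 0 in all 7 comparisons under every alternative run. The planned use of mean spot signals was not run, as the files hold medians. Over the 17 alternatives, 382 of 405 fold changes of members over wild type kept their direction and 23 turned, and an adjusted p below 0.05 was reached 3 times, all in dcKO with median centring in place of loess. Between genotypes it was reached by *Notch2* for dcKO minus Sox11 cKO with the same centring (adjusted p = 0.0493). There *Rbpj* was -1.06 (adjusted p = 0.0324), *Notch2* -0.90 (0.0332) and *Jag1* -0.90 (0.0339), but the median of the 12010 named genes above background was -0.47 and 28.8% of them passed. Relative to that median they were at -0.59, -0.43 and -0.43. The median of the 9 members moved to -0.76 in dcKO and -0.075 in Sox4 cKO with this centring. It was -0.34 without Sox4 cKO replicate 1 and 0.014 without Sox4 cKO replicate 2.

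Values that turned with median centring were *Notch1* at -0.30 and *Notch3* at -0.34 in dcKO and *Notch2* at 0.025 in Sox4 cKO. With Feature Extraction's processed signals, *Jag2* was -0.012 and *Hes1* -0.063 in Sox11 cKO, with the same values over the probes measured on all arrays, an alternative chosen after seeing the data. Leaving out 1 array at a time turned 16 values and moved *Rbpj* in dcKO from -1.13 to -0.08. In Sox4 cKO the ranges were -0.45 to 0.38 for *Notch2*, -0.74 to 0.0495 for *Jag1*, -0.18 to 0.86 for *Jag2*, -1.17 to 0.014 for *Dll1*, -0.23 to 0.10 for *Hes1*, -0.51 to 0.020 for *Rbpj* and -0.25 to 0.0040 for *Maml1*. In Sox11 cKO they were -0.13 to 0.48 for *Notch1*, -0.078 to 0.10 for *Jag2*, -0.58 to 0.74 for *Dll1*, -0.29 to 0.33 for *Hes1* and -0.11 to 0.41 for *Rbpj*. In dcKO they were -0.27 to 0.34 for *Notch1*, -0.29 to 0.50 for *Notch3*, -0.90 to 0.31 for *Jag2* and -0.28 to 0.047 for *Maml1*.

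With no replicate block, and so no dye term, 0 members were called in any comparison, as with it, and the fall of *Dtx4* in dcKO no longer passed (adjusted p = 0.0734). The 3 wider genes kept their direction throughout. With offset 50 none of them passed, nor with processed signals (adjusted p 0.126 to 0.336), and without 1 dcKO array they ranged from 0.121 to 0.481. *Dtx4* also missed the threshold without either Sox4 cKO array (0.0514), among probes above background in 2 or more channels (0.0650) and with the mean of a gene's probes (0.0525). The difference of *Ccnd1* between dcKO and Sox4 cKO missed it with offset 50 (0.104), with no replicate block (0.0720) and without any of the arrays it rests on (0.0778 to 0.193). That of *Dtx3l* between dcKO and Sox11 cKO passed with the authors' value table, with median centring and without Sox11 cKO replicate 1, and missed the threshold under the other alternatives run (adjusted p 0.0709 to 0.277).

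Over all probes, 78, 48 and 421 were called in Sox4 cKO, Sox11 cKO and dcKO. These became 3, 0 and 78 with offset 50, 35, 18 and 301 with no replicate block, and 110, 60 and 720 with median centring. With processed signals limma called 0 in each, with 3749, 3602 and 6674 at an unadjusted p below 0.05, and offset 50 left 3934 at that p in Sox11 cKO. Leaving out 1 array moved the counts called, so the background shares depend on single arrays.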

Other observations

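*Rbpj* had the largest mean absolute log2 fold change of the members over the 3 genotypes, 0.33. Among the 12010 named genes above background in 6 or more channels, the 5 whose dye-adjusted log2 ratios lay nearest to those of *Rbpj* over the 6 arrays were *Cep70* (root mean square difference 0.099), *Cep131* (0.105), *Rpl37a* (0.110), *Ahdc1* (0.114) and *Slc22a6* (0.119). *Cep70* and *Cep131* encode centrosomal proteins and *Rpl37a* a ribosomal protein. Their fold changes in dcKO were -0.77, -0.65, -0.56, -0.56 and -0.45, in the same order. With 6 arrays and this many genes, some genes lie near any given pattern.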
